A study of Homo sapiens with 8 samples.

Results

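The mitosis and G2/M genes encode the machinery that takes a cell from G2 into mitosis and out of it again. They were the 59 genes of a list, taken by gene symbol from the rows of the array. Of the 59, 48 had a row named for them, each 1 row, and all 48 passed the filter on low levels, among 14884 named genes and 12734 genes tested. The other 11 (CENPE, CENPF, NUF2, SPC24, SPC25, TPX2, TACC3, NCAPD2, NCAPG, NCAPH and UBE2C) were not analysed here.

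Entry into mitosis is driven by cyclin B bound to the kinase CDK1, which the CDC25 phosphatases switch on. Aurora and Polo-like kinases, kinesins and the kinetochore then build the spindle and attach chromosomes to it, condensin compacts the chromosomes, and the spindle checkpoint holds anaphase back until every chromosome is attached. CDC20 then activates the anaphase-promoting complex, which marks securin and cyclin B for destruction. Most of these genes are transcribed late in the cell cycle, with FOXM1 and MYBL2 among their activators. MKI67, the gene of the Ki-67 antigen, is the usual marker of dividing plasma cells in myeloma.

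The data were 8 whole-transcript expression arrays of the human myeloma lines MM1.S and NCI-H929, both multiple myeloma cultures grown in RPMI-1640 medium with serum. Each line carried a scramble control (SCR) or a short hairpin against SIRT6 (shSIRT6), an NAD-dependent deacetylase of chromatin, with 2 arrays in each of the 4 groups. By its title, the study asked how SIRT6 loss bears on the spliceosome in aggressive myeloma. The sources used here do not give the number of hairpins, their vector or the time after delivery. They do not state either whether arrays of the same group stem from different cultures, and the spread behind every p-value may therefore be technical.

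Median log2 levels of the 8 arrays lay between 3.88 and 3.97, and arrays of one group correlated across all rows at 0.989 to 0.992. These medians split by construct. They were 3.88, 3.92, 3.89 and 3.91 on the scramble arrays and 3.94, 3.97, 3.95 and 3.95 on the hairpin arrays. Over the genes tested, the NCI-H929 medians were 5.56 and 5.56 with scramble and 5.52 and 5.51 with the hairpin. In MM1.S replicate 2 of both constructs stood at 5.52. The part of this offset in the differences below was not tested beyond the other normalizations given below. With scramble, MAF and CCND2, high in MM1.S by its MAF translocation, were lower in NCI-H929 (log2 differences of −1.46 and −2.55), and FGFR3 and NSD2, the translocation targets of NCI-H929, were higher there (2.04 and 1.38). In MM1.S the log2 level of SIRT6 was 6.09 and 5.88 on the scramble arrays, then 5.60 and 5.78 on the hairpin arrays, and in NCI-H929 it was 6.53 and 6.97, then 6.25 and 6.31. Both hairpin arrays lay below both scramble arrays in each line, but neither difference passed (−0.30 ± 0.16 SE and −0.47 ± 0.16; limma, Benjamini-Hochberg adjusted p = 0.355 and 0.276).

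In what follows, levels are RMA log2 values, in the order replicate 1 and replicate 2 of scramble, then replicate 1 and replicate 2 of shSIRT6. Differences are shSIRT6 minus scramble on the log2 scale, with limma's standard error (SE). A gene was called where its p, adjusted by Benjamini-Hochberg across every gene tested, was below 0.05.

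The promoters of the members hold sequence that the choice of genes did not use. Late cell cycle promoters are known for a CHR element, searched here as TTTGAA or TTTAAA, that lies downstream of CCAAT boxes. No other letters were searched for it, so a window without a match may still hold such an element. The last 150 bases before the start site, from RefSeq on GRCh38.p14, are printed 5′ to 3′ along the gene for 5 members with both elements. CDC25C and PLK4, which had among the lowest differences of their groups in NCI-H929, are shown because the printed stretch holds neither element as searched. The table gives 1 start site a gene, and other start sites were not read. What CDC25C and PLK4 lack in the printed stretch may therefore be present near another start site. Capitals mark CCAAT and both searched forms of the CHR element on either strand (TTCAAA and ATTGG are the opposite strand of TTTGAA and CCAAT).
CCNB2 (chr15:59104996-59105145, plus strand): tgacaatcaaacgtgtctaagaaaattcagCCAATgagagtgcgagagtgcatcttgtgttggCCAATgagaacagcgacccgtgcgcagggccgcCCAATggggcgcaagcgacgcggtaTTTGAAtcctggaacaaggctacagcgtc
CDC20 (chr1:43358831-43358980, plus strand): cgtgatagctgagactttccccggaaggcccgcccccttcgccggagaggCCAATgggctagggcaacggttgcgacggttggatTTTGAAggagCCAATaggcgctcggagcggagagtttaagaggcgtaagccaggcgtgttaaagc
KIF20A (chr5:138178962-138179111, plus strand): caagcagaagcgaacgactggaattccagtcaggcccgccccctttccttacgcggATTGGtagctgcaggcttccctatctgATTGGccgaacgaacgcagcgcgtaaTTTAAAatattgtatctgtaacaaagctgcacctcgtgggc
PLK1 (chr16:23678739-23678888, plus strand): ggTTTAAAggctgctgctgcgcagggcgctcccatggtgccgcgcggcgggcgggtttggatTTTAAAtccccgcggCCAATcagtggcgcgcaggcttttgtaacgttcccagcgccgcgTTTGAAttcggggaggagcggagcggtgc
MKI67 (chr10:128126424-128126573, minus strand): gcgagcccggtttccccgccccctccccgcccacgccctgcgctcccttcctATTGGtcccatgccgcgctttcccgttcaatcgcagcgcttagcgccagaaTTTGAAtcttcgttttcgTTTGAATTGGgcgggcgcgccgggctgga
CDC25C (chr5:138338356-138338505, minus strand): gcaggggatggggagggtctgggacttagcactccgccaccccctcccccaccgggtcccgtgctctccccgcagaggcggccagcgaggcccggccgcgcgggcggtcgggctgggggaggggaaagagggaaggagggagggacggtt
PLK4 (chr4:127880743-127880892, plus strand): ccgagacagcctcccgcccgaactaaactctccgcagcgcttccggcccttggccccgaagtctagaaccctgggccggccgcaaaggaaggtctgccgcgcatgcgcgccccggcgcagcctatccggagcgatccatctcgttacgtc
In CCNB2 (cyclin B2), 3 CCAAT boxes preceded a TTTGAA whose first base was at −29 from the start site. In KIF20A, 2 boxes read on the opposite strand preceded a TTTAAA at −41. In CDC20 the TTTGAA at −65 lay between 2 boxes, and in MKI67 the TTTGAA nearest the start site shared 1 base with a box on the opposite strand. PLK4 has a TTTGAA on the opposite strand, from 39 to 44 bases after the start site and so outside the printed stretch, and it counts among the windows with the element below.

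Over windows from 250 bases before to 50 bases after the start site, 52 of the 59 members had an entry, and 40 of the 52 (76.9%) held TTTGAA or TTTAAA. The share was 24.3% of all 27305 promoters in the table and 16.8% of the 9530 promoters of genes tested. Both strands were read, and TTTAAA, which reads the same on both, was counted once. At least 1 CCAAT was present in 69.2% of member windows, 35.7% of all windows and 36.1% of those of genes tested. TTTGAA or TTTAAA together with at least 2 CCAAT was present in 32.7% of member windows, 2.77% of all and 2.33% for genes tested. These shares were not particular to the members. In 46 windows of other G2/M genes, a list described below, TTTGAA or TTTAAA was in 71.7%, CCAAT in 65.2% and the combination in 37.0%. An E2F-type site, TTTCCCGC, TTTGGCGC or TTTCGCGC, was in 11.5% of member windows, 2.79% of all and 3.98% for genes tested. It was in 15% of 40 windows of constitutive mitotic machinery, also described below. In 36 windows of DNA replication genes the members' shares were the other way round, with an E2F-type site in 50% and TTTGAA or TTTAAA in 11.1%. A match describes the letters of a window only.

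In NCI-H929 all 48 measured members had a lower mean level with shSIRT6 than with scramble, as did 58.1% of all genes tested. The log2 differences ran from −0.67 for PLK4, the kinase that starts centriole duplication, to −0.15 for NDC80, the microtubule anchor of the kinetochore. Their median was −0.30, a change of −18.6% on the linear scale, while the median of all genes tested was −0.045. The shares and medians of all genes, here and below, are not matched for level. On replicate 1 of scramble in NCI-H929 the median level was 8.16 for the members and 5.56 for all genes. The median difference of all genes was −0.03 without a filter and −0.065 with a stricter filter on low levels. With quantile normalization it was −0.0066, against −0.234 for the members, all still negative. Whether the members differ from genes of their own level was not tested. No single member passed the test (limma, 0 of 48 called, lowest Benjamini-Hochberg adjusted p = 0.185), where 0.0236% of all genes were called. At an unadjusted p below 0.05, 33 members were lower and 0 higher, against 9.75% of all genes lower and 4.74% higher. That number was 20 without replicate 1 of the scramble arrays of NCI-H929, 20 without replicate 2 and 21 with quantile normalization.

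Both shSIRT6 arrays lay below both scramble arrays in 46 of the 48 members in NCI-H929, which held for 30% of all genes tested. The members whose arrays overlapped were the kinesins KIF2C and KIF4A. As deviations from the mean of the line's 4 arrays, the median member stood at 0.15 on each scramble array and at −0.14 and −0.17 on the shSIRT6 arrays. In bulk RNA, fewer cells in G2 and mitosis cannot be told apart from less RNA of these genes in each cell.

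The count of called genes depended on limma's prior for the variance. With 1 prior for all genes, as used throughout, 0 members were called in NCI-H929. With a prior that follows the mean level of the gene, 20 of 48 were called, all lower, against 1.35% of all genes called lower. They were SMC4, MKI67, SMC2, KIF20A, PLK4, CCNA2, FOXM1, MELK, NUSAP1, CDC20, KIF23, CDC25C, ESPL1, HMMR, KIF14, CDCA2, AURKB, ZWINT, PLK1 and CDC25B, with adjusted p from 0.00469 for SMC4 to 0.0466 for CDC25B (limma, Benjamini-Hochberg).

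In MM1.S the members did not share a direction. With shSIRT6, 30 members had a higher mean and 18 a lower one (50.4% and 48.8% of all genes), with a median log2 difference of 0.03 and a range from −0.29 (KIF2C) to 0.42 (CDCA3). With quantile normalization and with cyclic loess, 14 were negative. The member medians were then 0.0955 and 0.0672, against 0.014 and −0.019 for all genes. Without 1 array, 16 to 23 were negative. None was called (limma, 0 of 48, lowest Benjamini-Hochberg adjusted p = 0.0852, for MKI67), where 1.33% of all genes were called. At an unadjusted p below 0.05, 8 members were higher (16.7%, against 8.25% of all genes) and 2 lower (4.17%, against 11.3%). The total of 10 was 3 without replicate 1 of the shSIRT6 arrays and 6 without replicate 2. Arrays did not overlap in 18 members that were higher and 12 that were lower, against 24.4% and 26.3% of all genes.

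With the prior that follows the level, 6 members were called higher in MM1.S (MKI67, AURKB, CDC20, INCENP, PLK1 and FOXM1) and HMMR was called lower, where 1.91% of all genes were called higher and 5.58% lower. Adjusted p ran from 0.000389 for MKI67 to 0.0380 for FOXM1 (limma, Benjamini-Hochberg).

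**Figure D1:**
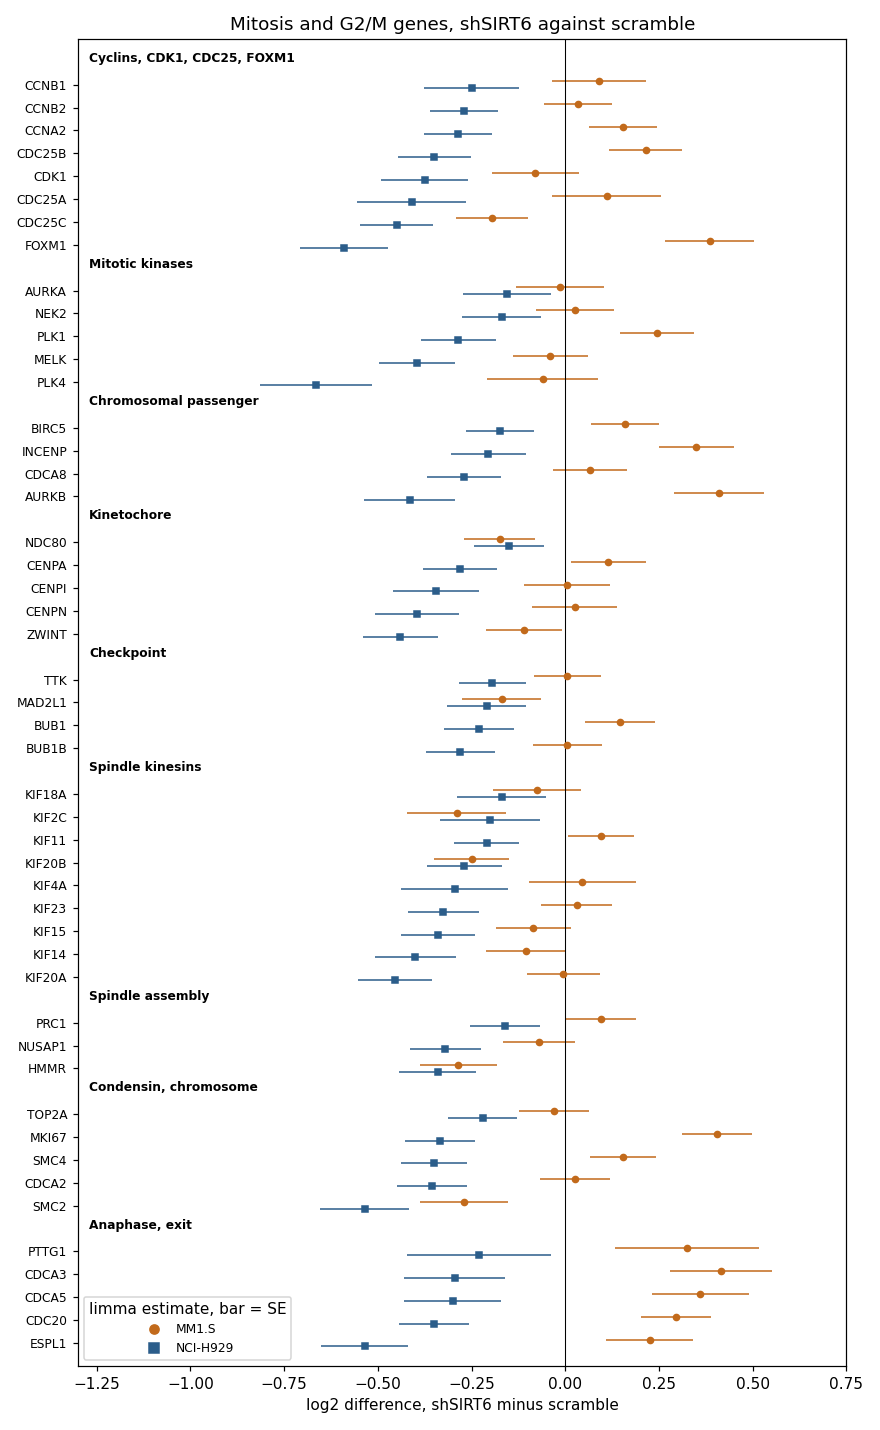
Log2 difference (shSIRT6 minus scramble, x axis) of each of the 48 measured members, grouped by role, in MM1.S (circles) and NCI-H929 (squares). Points are limma estimates from 2 arrays a group and bars 1 SE. All squares lie below 0, between −0.67 and −0.15, while the circles spread from −0.29 to 0.42.

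The first group holds cyclins A and B with CDK1, the CDC25 phosphatases and FOXM1. In NCI-H929 its 8 genes had a median difference of −0.36. At an unadjusted p below 0.05, 7 were lower (87.5%, against 9.75% of all genes). In MM1.S, 6 were positive and 2 negative, with a median of 0.10, which was 0.15 with quantile normalization, 0.0525 without replicate 2 of scramble and 0.04 without replicate 1 of shSIRT6. FOXM1, the transcription factor of the G2/M programme, was at 7.28 and 7.53, then 6.75 and 6.88, in NCI-H929. In MM1.S it was at 7.49 and 7.39, then 7.86 and 7.79. The hairpin arrays were thus the lower pair in NCI-H929 and the higher pair in MM1.S, without overlap in either line. FOXM1 was 1.51-fold lower in NCI-H929 (−0.59 ± 0.12 SE; limma, Benjamini-Hochberg adjusted p = 0.185) and 1.31-fold higher in MM1.S (0.39 ± 0.12; adjusted p = 0.147).

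CDC25C, the phosphatase that activates cyclin B and CDK1 at mitotic entry, was at 7.84, 7.95, 7.43 and 7.46 in NCI-H929 and at 7.37, 7.39, 7.13 and 7.24 in MM1.S. The hairpin arrays were the lower pair in both lines. The difference in NCI-H929 was −0.45 ± 0.10 SE (limma, Benjamini-Hochberg adjusted p = 0.191). CDC25B, its relative that acts earlier at the centrosome, was at 7.83, 7.98, 7.55 and 7.56 in NCI-H929 and at 8.34, 8.28, 8.55 and 8.50 in MM1.S. Its hairpin arrays were low in NCI-H929 and high in MM1.S, where the difference was 0.22 ± 0.10 (adjusted p = 0.279).

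CDK1 was at 7.87, 7.97, 7.68 and 7.41 in NCI-H929 and at 9.13, 9.08, 9.04 and 9.01 in MM1.S. Cyclin B1 (CCNB1) was at 9.43, 9.43, 9.02 and 9.34 in NCI-H929 and at 8.91, 8.80, 8.99 and 8.90 in MM1.S. The hairpin arrays of CDK1 were the lower pair in both lines. Those of CCNB1 were the lower pair in NCI-H929 and overlapped with scramble in MM1.S. Cyclin A2 (CCNA2), which acts from S phase to early mitosis, was at 10.33, 10.32, 10.08 and 10.00 in NCI-H929 and at 10.61, 10.56, 10.75 and 10.73 in MM1.S. It was low with the hairpin in NCI-H929 and high with it in MM1.S, without overlap.

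Among the 5 mitotic kinases, the median difference was −0.29 in NCI-H929, with 5 negative, and −0.02 in MM1.S, with 3 negative. PLK4 was at 7.89, 7.81, 7.36 and 7.01 in NCI-H929 and at 8.49, 8.21, 8.33 and 8.25 in MM1.S. Its hairpin arrays were both low in NCI-H929, and its arrays overlapped in MM1.S. The differences were −0.67 ± 0.15 SE (1.59-fold lower; limma, Benjamini-Hochberg adjusted p = 0.196) and −0.06 ± 0.15 (adjusted p = 0.853).

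MELK, a kinase of mitotic cells, was at 8.87, 8.91, 8.58 and 8.41 in NCI-H929 and at 9.29, 9.24, 9.26 and 9.19 in MM1.S. It was low on both hairpin arrays of NCI-H929 (−0.40 ± 0.10 SE; limma, Benjamini-Hochberg adjusted p = 0.210) and overlapped in MM1.S. PLK1, the Polo-like kinase of mitotic entry and spindle formation, was at 9.77, 9.87, 9.51 and 9.56 in NCI-H929 and at 9.62, 9.76, 9.95 and 9.92 in MM1.S. Its hairpin arrays were the lower pair in NCI-H929 and the higher pair in MM1.S (0.25 ± 0.10 SE; adjusted p = 0.233). AURKA, the Aurora kinase of the spindle poles, and NEK2, a centrosome kinase, had hairpin arrays below scramble in NCI-H929 and overlapping arrays in MM1.S.

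The chromosomal passenger complex, which corrects wrong attachments and then directs cytokinesis, had the opposite sign in the lines. Its 4 genes were negative in NCI-H929, with a median of −0.24, and positive in MM1.S, with a median of 0.26. With quantile normalization and cyclic loess the median in NCI-H929 was −0.149 and −0.155. AURKB, its kinase, was at 8.70, 8.74, 8.45 and 8.16 in NCI-H929 and at 8.58, 8.53, 8.90 and 9.03 in MM1.S. The arrays of the constructs did not overlap in either line. The differences were −0.42 ± 0.12 SE (1.33-fold lower; limma, Benjamini-Hochberg adjusted p = 0.244) and 0.41 ± 0.12 (1.33-fold higher; adjusted p = 0.138).

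INCENP, the scaffold of the complex, was at 7.93, 7.82, 7.72 and 7.62 in NCI-H929 and at 7.91, 7.98, 8.25 and 8.34 in MM1.S. Survivin (BIRC5), which docks it on chromatin, was at 7.30, 7.27, 7.14 and 7.08 in NCI-H929 and at 7.54, 7.50, 7.65 and 7.71 in MM1.S. Both genes were low on the hairpin arrays of NCI-H929 and high on those of MM1.S, and INCENP differed in MM1.S by 0.35 ± 0.10 SE (limma, Benjamini-Hochberg adjusted p = 0.128). Borealin (CDCA8) was at 8.53, 8.65, 8.37 and 8.27 in NCI-H929 (−0.27 ± 0.10; adjusted p = 0.291), and its arrays overlapped in MM1.S.

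Of the 10 kinetochore members 5 were measured, with a median of −0.35 in NCI-H929, where 5 were negative, and 0.005 in MM1.S, where 2 were. ZWINT, which links the checkpoint to the outer kinetochore, was at 6.91, 7.02, 6.50 and 6.55 in NCI-H929 and at 7.86, 7.71, 7.68 and 7.67 in MM1.S. Its hairpin arrays were the lower pair in both lines, in MM1.S by a narrow margin. The difference in NCI-H929 was −0.44 ± 0.10 SE (limma, Benjamini-Hochberg adjusted p = 0.196). CENPN, a reader of centromeric chromatin, was at 7.68, 7.60, 7.26 and 7.23 in NCI-H929 (−0.40 ± 0.11; adjusted p = 0.238) and overlapped in MM1.S.

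CENPA, the histone variant that marks the centromere, was at 7.66, 7.60, 7.31 and 7.39 in NCI-H929 and at 7.21, 7.08, 7.22 and 7.30 in MM1.S. It was low on the hairpin arrays of NCI-H929 and high on those of MM1.S by a narrow margin (0.12 ± 0.10 SE; limma, Benjamini-Hochberg adjusted p = 0.555). NDC80 was at 8.80, 8.88, 8.74 and 8.64 in NCI-H929 and at 8.52, 8.51, 8.31 and 8.37 in MM1.S. Its hairpin arrays were low in both lines (MM1.S, −0.18 ± 0.09; adjusted p = 0.350).

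The 4 spindle checkpoint genes had a median of −0.22 in NCI-H929 (−0.139 with cyclic loess), with 4 negative, and 0.005 in MM1.S, with 1 negative. BUB1B (BUBR1), part of the inhibitor of the anaphase-promoting complex, was at 7.56, 7.61, 7.32 and 7.29 in NCI-H929 (−0.28 ± 0.09 SE; limma, Benjamini-Hochberg adjusted p = 0.270) and between 7.94 and 8.04 on the arrays of MM1.S. It was low with the hairpin in NCI-H929 and overlapped in MM1.S. BUB1, its kinase relative at the kinetochore, was at 9.52, 9.51, 9.27 and 9.30 in NCI-H929 and at 10.08, 10.11, 10.30 and 10.18 in MM1.S. The hairpin arrays were low in NCI-H929 (−0.23 ± 0.09; adjusted p = 0.326) and high in MM1.S (0.15 ± 0.09; adjusted p = 0.426).

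MAD2L1 (MAD2), the checkpoint protein that binds CDC20, was at 8.33, 8.38, 8.04 and 8.25 in NCI-H929 and at 8.94, 8.95, 8.75 and 8.80 in MM1.S. Its hairpin arrays were low in both lines, by −0.17 ± 0.10 SE in MM1.S (limma, Benjamini-Hochberg adjusted p = 0.404). The checkpoint kinase TTK (MPS1) was low on the hairpin arrays of NCI-H929 and overlapped in MM1.S.

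The 9 spindle and cytokinesis kinesins were all negative in NCI-H929, with a median of −0.30, and 6 were negative in MM1.S, with a median of −0.08. The MM1.S median turned positive (0.015) without replicate 2 of shSIRT6 and was −0.0094 with quantile normalization and −0.042 with cyclic loess. KIF20A (MKLP2), needed for cytokinesis and carrying the CCAAT and TTTAAA promoter shown above, was at 8.83, 8.79, 8.33 and 8.38 in NCI-H929 and at 7.85, 7.96, 7.96 and 7.84 in MM1.S. It was low on both hairpin arrays of NCI-H929 (−0.46 ± 0.10 SE; limma, Benjamini-Hochberg adjusted p = 0.191), and in MM1.S the values of the constructs were interleaved. KIF14, a kinesin of the midbody, was at 8.15, 8.03, 7.75 and 7.63 in NCI-H929 (−0.40 ± 0.11; adjusted p = 0.220) and at 9.21, 9.23, 9.20 and 9.03 in MM1.S. The hairpin arrays of KIF14 were low in both lines, in MM1.S by a narrow margin.

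KIF20B was at 9.02, 8.92, 8.74 and 8.66 in NCI-H929 and at 8.91, 9.04, 8.75 and 8.70 in MM1.S. The hairpin arrays were the lower pair in both lines (MM1.S, −0.25 ± 0.10 SE; limma, Benjamini-Hochberg adjusted p = 0.231). KIF2C (MCAK), which depolymerises microtubules at the kinetochore, was at 7.97, 7.90, 7.64 and 7.65 in MM1.S (−0.29 ± 0.13; adjusted p = 0.282) and at 7.96, 8.05, 7.99 and 7.62 in NCI-H929. It was low on the hairpin arrays of MM1.S, whereas in NCI-H929 replicate 1 of shSIRT6 stood at the level of scramble. KIF4A, the chromokinesin, was at 8.16, 7.86, 7.87 and 7.56 in NCI-H929, where replicate 1 of shSIRT6 overlapped with replicate 2 of scramble. KIF11 (Eg5), which pushes the spindle poles apart, was at 9.94, 9.95, 9.75 and 9.72 in NCI-H929 and at 10.27, 10.26, 10.37 and 10.35 in MM1.S, low with the hairpin in the former and high in the latter.

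Of 5 spindle assembly factors 3 were measured, with medians of −0.32 in NCI-H929 and −0.07 in MM1.S. The latter was −0.032 with cyclic loess and −0.045 without replicate 1 of either construct. HMMR (RHAMM), which holds spindle microtubules together, was at 9.57, 9.38, 9.17 and 9.10 in NCI-H929 and at 9.76, 9.71, 9.45 and 9.45 in MM1.S. The hairpin arrays were low in both lines, by −0.34 ± 0.10 SE and −0.29 ± 0.10 (limma, Benjamini-Hochberg adjusted p = 0.248 and 0.190). NUSAP1, a bundler of spindle microtubules, was at 9.84, 9.87, 9.47 and 9.60 in NCI-H929 (−0.32 ± 0.10; adjusted p = 0.248), and PRC1, which crosslinks the central spindle, was at 8.51, 8.60, 8.69 and 8.61 in MM1.S (0.10 ± 0.09; adjusted p = 0.610).

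Condensin, topoisomerase II and the chromosome periphery had 5 measured members of 8, with a median of −0.35 in NCI-H929 and 0.03 in MM1.S. In NCI-H929 all 5 were lower at an unadjusted p below 0.05, against 9.75% of all genes. The condensin ATPase SMC2 was at 9.09, 8.93, 8.55 and 8.40 in NCI-H929 and at 9.51, 9.31, 9.18 and 9.10 in MM1.S. It was low on the hairpin arrays of both lines, by −0.54 ± 0.12 SE and −0.27 ± 0.12 (limma, Benjamini-Hochberg adjusted p = 0.196 and 0.265). Its partner SMC4 was at 9.73, 9.71, 9.39 and 9.35 in NCI-H929 (−0.35 ± 0.09; adjusted p = 0.209) and at 10.78, 10.78, 10.93 and 10.94 in MM1.S. The hairpin arrays of SMC4 were low in NCI-H929 and high in MM1.S, so the ATPases of one complex had the same sign in NCI-H929 and opposite signs in MM1.S.

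MKI67, whose product coats mitotic chromosomes, was at 10.55, 10.65, 10.25 and 10.28 in NCI-H929 and at 10.93, 10.94, 11.38 and 11.30 in MM1.S. Hairpin and scramble arrays were clearly apart in both lines, in opposite directions. MKI67 was 1.32-fold higher with the hairpin in MM1.S (0.41 ± 0.09 SE; limma, Benjamini-Hochberg adjusted p = 0.0852). TOP2A, topoisomerase II alpha, was at 10.16, 10.18, 9.99 and 9.91 in NCI-H929 and at 10.49, 10.44, 10.47 and 10.40 in MM1.S, low with the hairpin in NCI-H929 and overlapping in MM1.S.

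The genes of anaphase and mitotic exit, of which 5 of 6 were measured, had a median of −0.30 in NCI-H929, with 5 negative, and 0.33 in MM1.S, with 5 positive. The median in MM1.S was 0.195 without replicate 2 of scramble. CDC20 was at 9.02, 9.05, 8.67 and 8.70 in NCI-H929 and at 8.39, 8.49, 8.76 and 8.71 in MM1.S. The 2 constructs were apart in each line, with opposite order. The differences were −0.35 ± 0.09 SE (1.27-fold lower; limma, Benjamini-Hochberg adjusted p = 0.215) and 0.30 ± 0.09 (1.23-fold higher; adjusted p = 0.151).

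Separase (ESPL1), the protease that opens the cohesin ring, was at 7.05, 7.01, 6.56 and 6.43 in NCI-H929 and at 7.54, 7.29, 7.68 and 7.60 in MM1.S. It was low with the hairpin in NCI-H929 (−0.54 ± 0.12 SE; limma, Benjamini-Hochberg adjusted p = 0.191) and high in MM1.S by a narrow margin. CDCA3, which brings the kinase WEE1 to destruction, was at 6.74, 6.92, 6.67 and 6.40 in NCI-H929 and at 7.33, 7.55, 7.89 and 7.82 in MM1.S, low and high with the hairpin in turn (MM1.S, 0.42 ± 0.14; adjusted p = 0.162). Sororin (CDCA5), which guards cohesion, was at 6.55, 6.59, 6.35 and 6.19 and at 6.78, 6.45, 6.97 and 6.98. Securin (PTTG1), which has near-identical copies that the array may not tell apart, was at 5.24, 5.22, 4.94 and 5.06 in NCI-H929 and overlapped in MM1.S at 4.98, 4.49, 5.27 and 4.85.

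**Figure D2:**
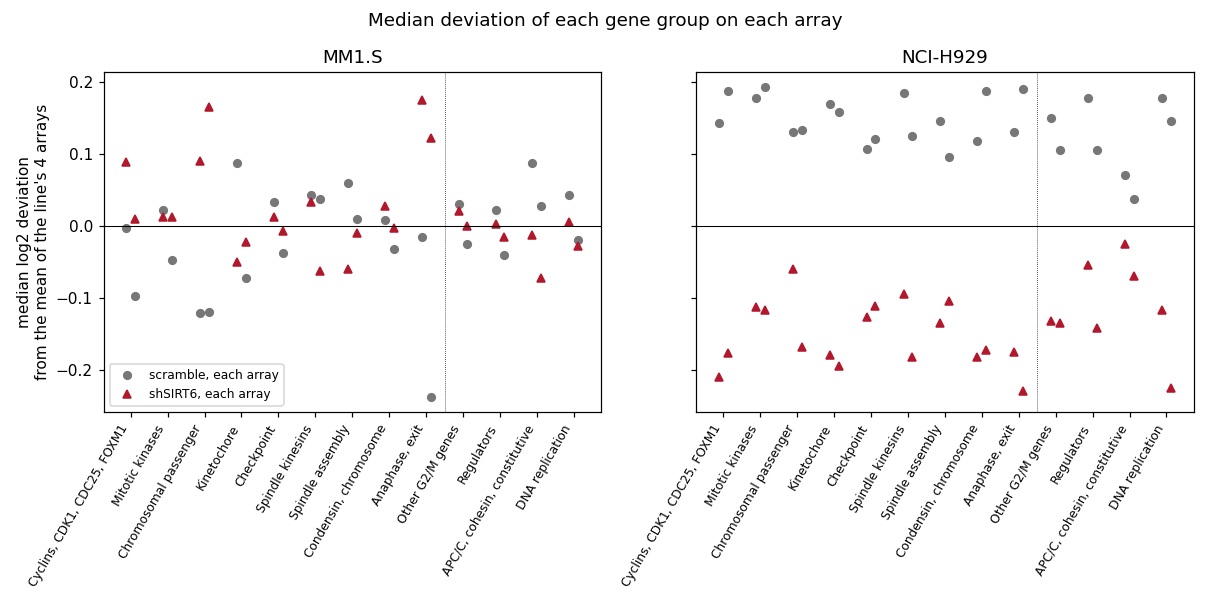
Median deviation of the genes of each group on each array from the mean of the line's 4 arrays (y axis, log2), for MM1.S (left) and NCI-H929 (right). Circles are the 2 scramble arrays and triangles the 2 shSIRT6 arrays, and the dotted line separates the member groups from the other lists. In NCI-H929 every triangle lies below every circle of its group, while in MM1.S they lie above the circles in the cyclin, chromosomal passenger and anaphase groups, below them in the spindle kinesins, spindle assembly and constitutive machinery, and overlap with them in the other groups.

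The change with the hairpin was compared between the lines as the difference of the differences, NCI-H929 minus MM1.S. It was negative in 46 of 48 members, with a median of −0.34, where 54.4% of all genes were negative and their median was −0.035. No member passed the test of the difference (limma, 0 of 48, lowest Benjamini-Hochberg adjusted p = 0.0912), where 0.204% of all genes were called. At an unadjusted p below 0.05, 25 members were negative, against 8.11% of all genes. That number was 14 without replicate 2 of the MM1.S scramble arrays or replicate 1 of the NCI-H929 scramble arrays, and 16 without replicate 1 of the MM1.S hairpin arrays or replicate 2 of the NCI-H929 scramble arrays. The positive members were NDC80 and KIF2C.

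The group of anaphase and mitotic exit had a median difference between the lines of −0.66, that of the chromosomal passenger complex −0.45 and that of the checkpoint −0.24. FOXM1 stood at −0.98 ± 0.17 SE, AURKB at −0.83 ± 0.17, ESPL1 at −0.76 ± 0.16, MKI67 at −0.74 ± 0.13 and CDC20 at −0.65 ± 0.13 (limma, Benjamini-Hochberg adjusted p = 0.0912, 0.138, 0.153, 0.102 and 0.138). CDC25B (−0.57 ± 0.14), INCENP (−0.56 ± 0.14), PLK1 (−0.53 ± 0.14) and SMC4 (−0.51 ± 0.12) followed with adjusted p from 0.189 to 0.205. With the prior that follows the level, 15 members were called, all negative, where 1.79% of all genes were. These were MKI67, SMC4, CDC20, FOXM1, AURKB, CCNA2, PLK1, CDC25B, ESPL1, INCENP, BUB1, KIF11, CDCA3, KIF20A and KIF23.

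Counted by arrays, 17 members were higher on both hairpin arrays of MM1.S and lower on both of NCI-H929 (35.4% of members and 6.24% of all genes tested). They were AURKB, BIRC5, BUB1, CCNA2, CDC20, CDC25B, CDCA3, CDCA5, CENPA, ESPL1, FOXM1, INCENP, KIF11, MKI67, PLK1, PRC1 and SMC4. A further 11 were lower in both lines (22.9% of members and 10.5% of all genes). These were CDC25C, CDK1, HMMR, KIF14, KIF15, KIF20B, MAD2L1, NDC80, NUSAP1, SMC2 and ZWINT. Some members of both groups, among them PRC1, CENPA, ESPL1, KIF14 and ZWINT, were apart in MM1.S by a narrow margin only. Another 18 overlapped in MM1.S and were lower in NCI-H929 (37.5% against 13.3%).

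Averaged over the lines, the difference was negative in 43 of 48 members (54.7% of all genes), with a median of −0.12, against −0.0225 for all genes. With quantile normalization 34 were negative and the median was −0.048, and with cyclic loess 38 were and it was −0.066. No member was called (limma, 0 of 48, and 0.0864% of all genes), and 16 were lower at an unadjusted p below 0.05, against 13.6% of all genes. Counted in either direction, the 16 became 9 with either of these normalizations, and 10 without replicate 1 of the MM1.S scramble arrays or replicate 2 of the NCI-H929 scramble arrays. The lowest averages were SMC2 at −0.40 ± 0.08 SE, PLK4 at −0.36 ± 0.10, CDC25C at −0.32 ± 0.07 and HMMR at −0.31 ± 0.07 (Benjamini-Hochberg adjusted p = 0.0788, 0.128, 0.0804 and 0.0922). With the prior that follows the level, 11 members were called lower, where 6.09% of all genes were.

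The other genes of the pathway were read from lists that hold no member. Of 56 other periodic G2/M genes 43 were tested, and in NCI-H929 41 were negative (95.3%, against 58.1% of all genes), with a median of −0.23. At an unadjusted p below 0.05, 22 were lower in NCI-H929 (51.2%, against 9.75% of all genes). The median in MM1.S was 0. TRIP13, an ATPase that disassembles checkpoint complexes, was at 8.43, 8.44, 7.81 and 7.86 in NCI-H929 and at 8.64, 8.51, 8.87 and 8.82 in MM1.S. It was low with the hairpin in NCI-H929 (−0.60 ± 0.10 SE; limma, Benjamini-Hochberg adjusted p = 0.177) and high in MM1.S. Cyclin F (CCNF), a substrate receptor of a ubiquitin ligase, was at 7.68, 7.74, 7.25 and 7.31 in NCI-H929 (−0.43 ± 0.09; adjusted p = 0.191) and at 7.41, 7.35, 7.87 and 7.82 in MM1.S (0.47 ± 0.09; adjusted p = 0.0636). None of the 43 was called in either line (limma, 0), where 0.0236% of all genes were in NCI-H929 and 1.33% in MM1.S. With the prior that follows the level, 12 were called lower in NCI-H929 (1.35% of all genes), and 2 higher and 1 lower in MM1.S (1.91% and 5.58%).

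The list of mitotic machinery that is present through the whole cycle, such as subunits of the anaphase-promoting complex and cohesin, was closer to the median of all genes in NCI-H929 than the members were. Of its 31 tested genes 27 were negative in NCI-H929 (87.1%, against 58.1% of all genes), with a median of −0.10. In MM1.S 23 were negative (74.2%, against 48.8%), with a median of −0.09. At an unadjusted p below 0.05, 4 were lower in NCI-H929 (12.9%, against 9.75% of all genes) and 5 in MM1.S (16.1%, against 11.3%). With quantile normalization these medians were −0.016 and −0.033, and with cyclic loess −0.025 and −0.05. The lowest p in NCI-H929 was that of SMC1A, a cohesin ATPase, at 9.08, 8.98, 8.75 and 8.62 (−0.35 ± 0.10 SE; limma, Benjamini-Hochberg adjusted p = 0.238). ANAPC16, a subunit of the anaphase-promoting complex, had the lowest p in MM1.S, at 8.76, 8.75, 8.31 and 8.31 (−0.45 ± 0.10; adjusted p = 0.0842), and overlapped in NCI-H929. No gene of this list was called in either line (limma, 0), where 0.0236% of all genes were in NCI-H929 and 1.33% in MM1.S. The prior that follows the level called 1 lower in NCI-H929 and 3 lower in MM1.S, against 1.35% and 5.58% of all genes.

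Regulators of mitotic transcription had 17 tested genes, 16 of them negative in NCI-H929 (94.1%, against 58.1% of all genes). Their median was −0.29 there and 0.03 in MM1.S. At an unadjusted p below 0.05, 7 were lower in NCI-H929 (41.2%, against 9.75% of all genes). The median in NCI-H929 was −0.181 with quantile normalization. None was called in either line (limma, 0), where 0.0236% of all genes were in NCI-H929 and 1.33% in MM1.S. The prior that follows the level called 2 lower in NCI-H929 (1.35% of all genes), and 2 higher and 2 lower in MM1.S (1.91% and 5.58%). MYBL2 (B-MYB), which activates G2/M genes, was at 10.12, 10.17, 9.68 and 9.80 in NCI-H929 and at 9.52, 9.54, 9.86 and 9.91 in MM1.S. It was low and high with the hairpin in turn, as FOXM1 was (−0.41 ± 0.09 SE and 0.36 ± 0.09; limma, Benjamini-Hochberg adjusted p = 0.203 and 0.112). LIN52, a subunit of the DREAM and MuvB complexes, was at 7.24, 7.25, 6.73 and 6.90 in NCI-H929 and at 7.78, 7.62, 7.25 and 7.10 in MM1.S. It was low with the hairpin in both lines (−0.43 ± 0.11 and −0.53 ± 0.11; adjusted p = 0.214 and 0.0734). E2F2, an activator of S phase genes, was at 7.75, 7.84, 8.45 and 8.24 in MM1.S (0.55 ± 0.11; adjusted p = 0.0674).

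Genes of DNA replication, which belong to S phase, were lower with the hairpin in NCI-H929 as well. All 23 tested genes were negative there, as were 58.1% of all genes, with a median of −0.36. None was called there (limma, 0), where 0.0236% of all genes were. At an unadjusted p below 0.05, 16 were lower in NCI-H929 (69.6%, against 9.75% of all genes). With the prior that follows the level, 8 were called lower in NCI-H929 and 1 lower in MM1.S, against 1.35% and 5.58% of all genes. GINS2, of the replicative helicase, was at 7.59, 7.72, 6.92 and 6.98 in NCI-H929 (−0.71 ± 0.13 SE; limma, Benjamini-Hochberg adjusted p = 0.185) and at 6.96, 6.92, 6.72 and 7.07 in MM1.S. It was low on both hairpin arrays of NCI-H929 and overlapped in MM1.S, where the median of the list was −0.04. Thymidylate synthase (TYMS) was at 9.78, 9.75, 9.30 and 9.25 in NCI-H929 (−0.49 ± 0.09 SE; limma, Benjamini-Hochberg adjusted p = 0.185), and CDC6, which loads the helicase, at 8.69, 8.76, 8.25 and 8.17 (−0.52 ± 0.10; adjusted p = 0.185). Both were low with the hairpin.

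**Figure D3:**
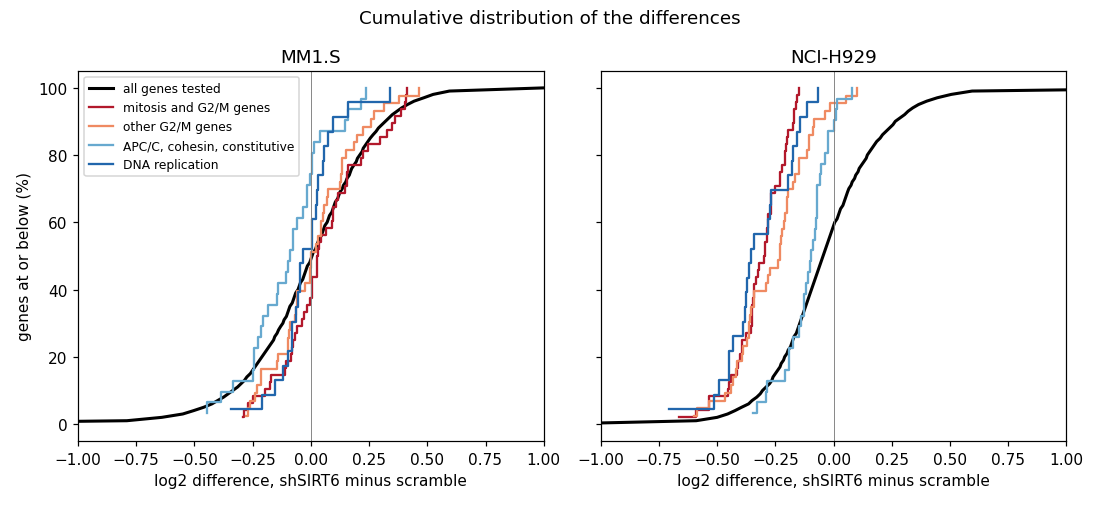
Cumulative share of genes (y axis, percent) at or below each log2 difference (x axis, shSIRT6 minus scramble) in MM1.S (left) and NCI-H929 (right), for all 12734 genes tested, the 48 members and 3 of the lists. In NCI-H929 the members, the other G2/M genes and the DNA replication genes lie left of the curve of all genes, with medians of −0.30, −0.23 and −0.36 against −0.045, while in MM1.S the curves cross.

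Markers of other cells were read beside these values. Of 6 tested T and NK cell markers 6 were positive in NCI-H929, where 58.1% of all genes were negative. Their median was 0.26, and none was called (limma, 0), where 0.0236% of all genes were. Their median level per array was low, from 4.25 to 4.68, and CD4, which had the lowest p among them, was at 3.79, 3.94, 4.53 and 4.30. The 8 tested plasma cell markers had a median of −0.05 in NCI-H929 and 0.005 in MM1.S. None was called in NCI-H929 (0.0236% of all genes), and 1 was called in MM1.S (12.5%, against 1.33% of all genes). It was SDC1 (CD138), at 8.18, 8.23, 8.73 and 8.72 in MM1.S, which rose with the hairpin (0.52 ± 0.09 SE; limma, Benjamini-Hochberg adjusted p = 0.0461). This call was lost in 11 of 16 alternatives, among them leaving out any 1 of the 8 arrays. IRF4, a transcription factor of plasma cells, was at 11.61, 11.54, 11.27 and 11.23 in MM1.S (−0.33 ± 0.09; adjusted p = 0.121). The markers' median level per array lay between 9.44 and 9.69 over both lines. Of 3 tested stromal or embryonic kidney markers, 2 were positive in NCI-H929 and 3 in MM1.S, with array medians between 3.31 and 4.08. The part of these markers in the result was not tested.

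Within the members, the differences in NCI-H929 were compared across the promoter classes described above. The 14 measured members with TTTGAA or TTTAAA and at least 2 CCAAT had a median of −0.28. The 19 with TTTGAA or TTTAAA and fewer CCAAT had −0.30, and the 10 with neither TTTGAA nor TTTAAA had −0.35. All members of each class were negative, as were all 48 measured members. FOXM1, AURKA, BIRC5, TTK and CDCA2 had no promoter entry and were in no class. Among genes in none of the lists, the medians of the same classes were −0.08 (193 genes), −0.045 (1339) and −0.05 (7845). In MM1.S the member medians were 0.05, 0.005 and 0.13. An E2F-type site, which could occur in any of these classes, was in the windows of 6 measured members. Their median was −0.33 in NCI-H929 and 0.02 in MM1.S. Among genes in none of the lists, 349 had such a site, with a median of −0.10 in NCI-H929. Of these 349, 71.3% were negative, against 59.9% of those with neither TTTGAA nor TTTAAA. Whether the classes differ was not tested.

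The lines themselves differed in these genes. With scramble, 28 of 48 members were called between NCI-H929 and MM1.S (limma, Benjamini-Hochberg; 38.3% of all genes), 7 higher and 21 lower in NCI-H929, against 20% and 18.3% of all genes. The median member difference, NCI-H929 minus MM1.S, was −0.19, and that of all genes was 0.03. This comparison uses the same scramble arrays as the hairpin differences, so a high scramble value in NCI-H929 raises the one and lowers the other. The count was 17 without replicate 1 of the MM1.S scramble arrays and 15 without replicate 1 of the NCI-H929 scramble arrays.

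CDK1 was at 9.13 and 9.08 in MM1.S with scramble and at 7.87 and 7.97 in NCI-H929, 2.27-fold lower (−1.19 ± 0.12 SE; limma, Benjamini-Hochberg adjusted p = 0.000194). KIF14 was lower by 2.19-fold (9.21 and 9.23 in MM1.S, 8.15 and 8.03 in NCI-H929) and SMC4 by 2.08-fold (10.78 and 10.78, then 9.73 and 9.71), with adjusted p of 0.000170 and 9.17e-05. The checkpoint genes BUB1, MAD2L1 and BUB1B and both condensin ATPases were all called lower in NCI-H929. In the other direction KIF20A was higher by 1.87-fold (7.85 and 7.96 in MM1.S, 8.83 and 8.79 in NCI-H929; adjusted p = 0.000317). CDC20, cyclin B1, CDC25C, CENPA, AURKA and NDC80 were called higher in NCI-H929 too. Without 1 scramble array, some of these calls were lost: NDC80 without any 1 of the 4, AURKA without either of MM1.S or replicate 1 of NCI-H929, and cyclin B1 without replicate 2 of MM1.S. SMC2 lost its call without replicate 1 of MM1.S or either of NCI-H929, and BUB1B without replicate 1 of either line. The calls of NDC80 and SMC2 were also lost with the scramble arrays fitted alone, and that of NDC80 with the replicate number as a block. FOXM1 was at 7.49 and 7.39 in MM1.S and 7.28 and 7.53 in NCI-H929, with overlapping arrays.

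**Figure D4:**
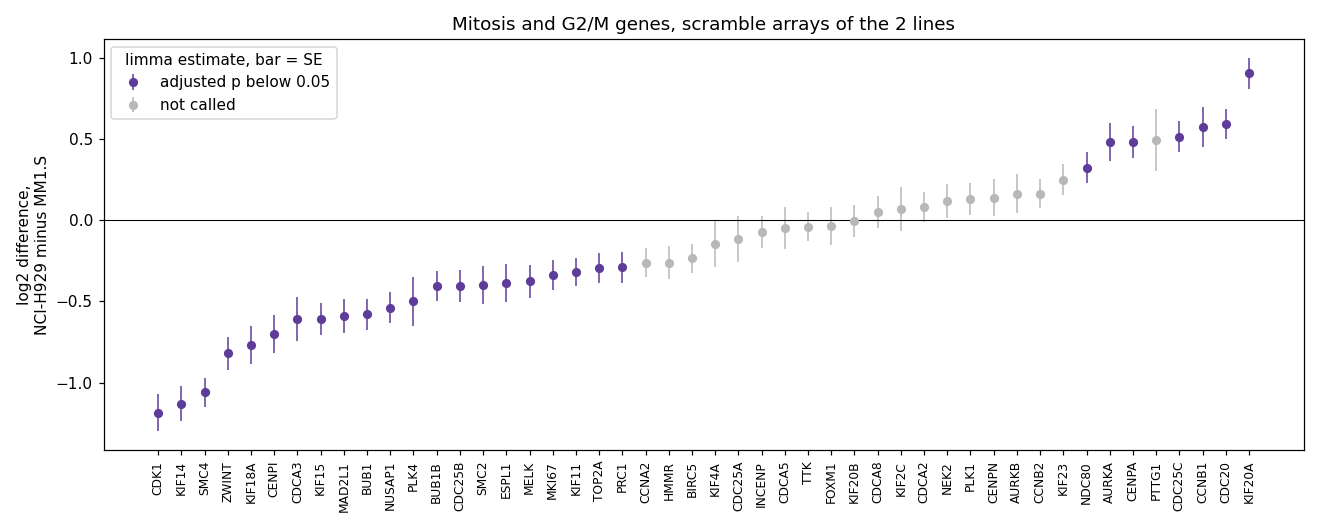
Log2 difference of each of the 48 measured members between the lines with scramble (y axis, NCI-H929 minus MM1.S), in order of size. Points are limma estimates from 2 arrays a line, bars 1 SE, and dark points the 28 genes with a Benjamini-Hochberg adjusted p below 0.05, from CDK1 at −1.19 to KIF20A at 0.91.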

How the data were processed

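Total RNA of each sample was labelled with the WT PLUS kit and hybridised to Human Gene 2.0 ST arrays, per the labels. The deposited values are log2 levels, 1 row per transcript cluster, which the authors made with RMA and the Transcriptome Analysis Console against hg19, per the submitters' processing notes. With no scanner intensities used here, probes were not set against a background level, and the number of arrays limits the precision. All 8 columns were used (0 others present).

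Of 48226 rows, 16098 carried 1 gene symbol, 0 carried several and 32128 were unnamed here, and for 779 genes with over 1 row the row with the highest mean was kept. Genes were tested where their mean passed the 30th percentile over the rows (log2 level 3.045). The 4 group means were fitted over the 8 arrays with limma 3.58.1 (R 4.3.3; lmFit, eBayes), with 4 residual and 3.43 prior degrees of freedom and Benjamini-Hochberg adjustment over 12734 genes. An exact permutation test of 2 arrays against 2 cannot give a two-sided p below 0.333. Same-numbered arrays did not deviate together (correlations of 0.0767 in MM1.S and −0.00108 in NCI-H929), so the replicate number was no block.

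The members, gene lists and roles were chosen with earlier results of these data known. Differences with SE and adjusted p were limited to SIRT6, called members, the 2 members of each role with the lowest p in a comparison, and the 3 genes of each other list with the lowest p, of which the text prints a part. Values of further genes are levels only. Promoter letters came from a RefSeq table on GRCh38.p14, matched by symbol and read on both strands. The alternatives were quantile and cyclic loess normalization, the mean of a gene's rows, no filter and a filter at the 50th percentile, a trend in eBayes, a replicate block, each line (or the scramble arrays) alone, and leaving out each array.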

Additional observations from a re-analysis of the deposited data

How the results depend on the processing

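All 48 measured members stayed negative in NCI-H929 under each of the 16 alternatives run for that comparison. Their median was −0.234 with quantile normalization, −0.240 with cyclic loess and between −0.3225 and −0.2925 without 1 array. The median in MM1.S was 0.0955 with quantile normalization, 0.0672 with cyclic loess and between 0.0025 and 0.0675 without 1 array. For the mean of both lines it was −0.0483 and −0.0659 with quantile normalization and cyclic loess. For the difference between the lines it was −0.297 with cyclic loess and between −0.3725 and −0.3075 without 1 array. A trend in eBayes called 7 members in MM1.S, 20 in NCI-H929, 11 for the mean and 15 for the difference, where the other alternatives called 0. The cause of these shifts was not tested. Where 1 array was left out, the remaining array of its group was assumed to vary like the other groups. Between the lines with scramble, leaving out 1 array gave 15 to 27 called members and a median from −0.27 to −0.1625. With a replicate block, 0 members were called in the hairpin comparisons and 24 between the lines, against 0 and 28 without it, and the samples share only a number. At an unadjusted p below 0.05 the block left 29 members in NCI-H929, 10 in MM1.S and 18 for the difference. Signs of single genes near 0 turned in a few settings. PLK4 in MM1.S was 0.013 with quantile normalization and ran from −0.2 to 0.08 without 1 array, and CDCA3 in the mean of both lines from −0.0075 to 0.1275. KRT18 in MM1.S was −0.08 over its rows, and KRT18 in the difference between the lines was 0.0248 with cyclic loess and 0.23 over its rows. Without 1 array, KRT18 ran from −0.065 to 0.215 in MM1.S, from −0.005 to 0.135 in the mean and from −0.16 to 0.12 in the difference. CD4 ran from −0.09 to 0.58 in MM1.S and from −0.03 to 0.64 in the difference, and PAX2 in NCI-H929 from −0.395 to 0.115. In the difference, EPCAM ran from −0.2 to 0.09 and SIRT6 from −0.395 to 0.045.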
